A study of Mus musculus with 41 samples.

Results

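Gpr101, Gpr149, Gpr83, Gpr139 and Gpr158 encode G protein-coupled receptors named as orphans, that is, receptors first known without a ligand. Their rows were taken by gene symbol from the count table of each library, and all 5 were found among 32531 named genes. The group was chosen by the p-value of Gpr101, which was among the lowest after cocaine at 1 month, so the contrasts of cocaine with saline at 1 month are described without a test for all 5. The counts came from dorsal striatum, and the mice were of the line Drd1-TRAP CP73. In this line the Drd1 promoter drives an EGFP-tagged ribosomal protein L10a, so that ribosome-bound RNA of cells with the dopamine D1 receptor can be pulled down with an antibody to EGFP. The purified RNA is that of the cells in which the transgene is active. All mice carried the transgene on a background given as FVB/N-Swiss Webster crossed to C57BL/6 for at least 9 generations.

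The mice had self-administered either saline or cocaine, and the cocaine mice were divided by the submitters into an escalating and a nonescalating group. At 24 h after self-administration there were 5 saline, 9 nonescalating and 5 escalating purified libraries. At about 1 month there were 5 saline, 11 nonescalating and 4 escalating purified libraries. Total RNA of saline mice, without purification and without a time in its label, gave 2 input libraries. The word extended is missing from the labels of the inputs, of the escalating group at 1 month and of the second run of nonescalating replicate numbers at 1 month. Sex, age and the number of mice behind a library were not stated, so all p-values measure only the spread between these libraries, which may be technical.

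G protein-coupled receptors pass a signal from outside the cell to heterotrimeric G proteins. In D1 medium spiny neurons, the direct pathway neurons of the striatum, dopamine raises cyclic AMP through a stimulatory G protein, and receptors that couple to stimulatory, inhibitory or Gq proteins can add to or oppose this signal. Gpr101 is encoded on the X chromosome, is active without ligand in cultured cells and couples to the stimulatory G protein; in humans, extra copies of the gene cause X-linked acrogigantism. Gpr83, first described in mouse as a glucocorticoid-induced receptor, has been reported to respond to the peptide PEN, which is cut from proSAAS. Gpr139 responds to aromatic amino acids and opposes mu opioid receptor signalling in mice. Gpr158 is a class C receptor that holds a regulator of G protein signalling, the RGS7 complex, at the membrane and has been reported to bind glycine. Gpr149 is a little-studied member of the rhodopsin family.

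In the GENCODE annotation of GRCm38, Gpr101 lies on the minus strand of the X chromosome (57496668 to 57503757) with 2 exons, Gpr139 on the minus strand of chromosome 7 (119140747 to 119184603) with 2 exons, and Gpr149 on the minus strand of chromosome 3 (62529077 to 62605140) with 5 exons. Gpr83 lies on the plus strand of chromosome 9 (14860210 to 14870789) with 7 exons and Gpr158 on the plus strand of chromosome 2 (21367542 to 21830547) with 13 exons. An antisense gene, Gm13327, shares 1202 exon bases with Gpr158 on the opposite strand. It has no row in the tables. The sources used here do not give the strand setting of the counting, so reads of Gpr158 and Gm13327 cannot be told apart.

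RefSeq promoter sequences were at hand for 3 of the 5 genes (Gpr101, Gpr83 and Gpr158). The 250 bases before the annotated start are shown for Gpr101 (chrX:57503758-57504007, minus strand) and Gpr83 (chr9:14859960-14860209, plus strand), the genes with the lowest fold changes after cocaine at 1 month, in build GRCm38.p6 and 5′ to 3′ along the gene. Capitals mark the core of the cyclic AMP response element, searched as TGACG on both strands and found here as its reverse complement.
Gpr101: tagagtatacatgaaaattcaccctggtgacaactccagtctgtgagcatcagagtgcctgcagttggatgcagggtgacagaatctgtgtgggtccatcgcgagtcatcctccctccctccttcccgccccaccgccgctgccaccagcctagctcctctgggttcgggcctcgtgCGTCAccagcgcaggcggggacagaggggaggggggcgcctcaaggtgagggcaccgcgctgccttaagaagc
Gpr83: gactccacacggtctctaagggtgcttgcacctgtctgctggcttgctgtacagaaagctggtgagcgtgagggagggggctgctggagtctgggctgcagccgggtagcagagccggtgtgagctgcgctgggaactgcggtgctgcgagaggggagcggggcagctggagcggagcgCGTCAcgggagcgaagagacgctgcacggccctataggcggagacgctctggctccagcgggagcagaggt
The match began at position -73 in Gpr101 and at -71 in Gpr83, counted back from the start, and was not found in the same window of Gpr158. TGACG is held by 17.8% of 32851 promoter windows of this length, so a match is a description and not a binding site. The windows of Gpr101, Gpr83 and Gpr158 held no complete element (TGACGTCA, in 1.55% of windows), no AP-1 element (TGANTCA, 6.75%), no TATAAA (12.4%) and no CCAAT (33.8%). Their GC content was 62.4%, 66.8% and 60.0%, against a median of 52.4% over all windows, and they held 13, 18 and 14 CG dinucleotides against a median of 6.

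Between 5394332 and 23925655 reads per library were counted on named genes (median 11340272). Drd1 had 401.6 to 773.2 CPM (counts scaled to a total of 1000000 over named genes in each library) in the purified libraries and 330.5 and 445.1 in the inputs, and Drd2, which marks the indirect pathway neurons, had 6.69 to 49.0 against 187 and 217. Of 9 D1 neuron markers, 5 were called higher in purified RNA and none lower, and of 9 D2 neuron markers, 6 were called lower and none higher. The 8 endothelial markers all had positive fold changes in purified over input RNA, with a median of 3.57 against 1.25 for the D1 markers, and none was called. They summed to 17.9 to 1655 CPM in the purified libraries (median 163) and to 30.46 and 36.03 in the inputs, and their part in the receptor values was not tested. The library of saline replicate 5 at 24 h stood apart, with the lowest count (5394332), the fewest genes detected (11856) and the highest share of reads outside genes (42.3%). The values that turn on it are also given without it.

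Levels of different genes are compared only per kilobase of annotated exon. Gpr158 was the most abundant of the 5 receptors in purified RNA, with 74.1 ± 11.9 CPM per kilobase (SD, n = 39), and ranked 1 of the 50 orphan receptor genes compared here. Gpr83 followed with 12.1 ± 5.32 (rank 4), Gpr101 with 7.57 ± 2.65 (rank 5), Gpr139 with 3.25 ± 1.28 (rank 12) and Gpr149 with 1.08 ± 0.553 (rank 23). In the inputs the ranks were 1 for Gpr158, 5 for Gpr83, 13 for Gpr101, 22 for Gpr139 and 29 for Gpr149. The SDs of Gpr83 and Gpr101 overlapped, and both differed from Gpr158 by more than their SDs. Of the 50 genes, 17 had a mean under 1 CPM in the purified libraries. Gpr52, with a mean of 7.19 CPM there, had no exon length at hand and is not among the 50.

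**Figure D1:**
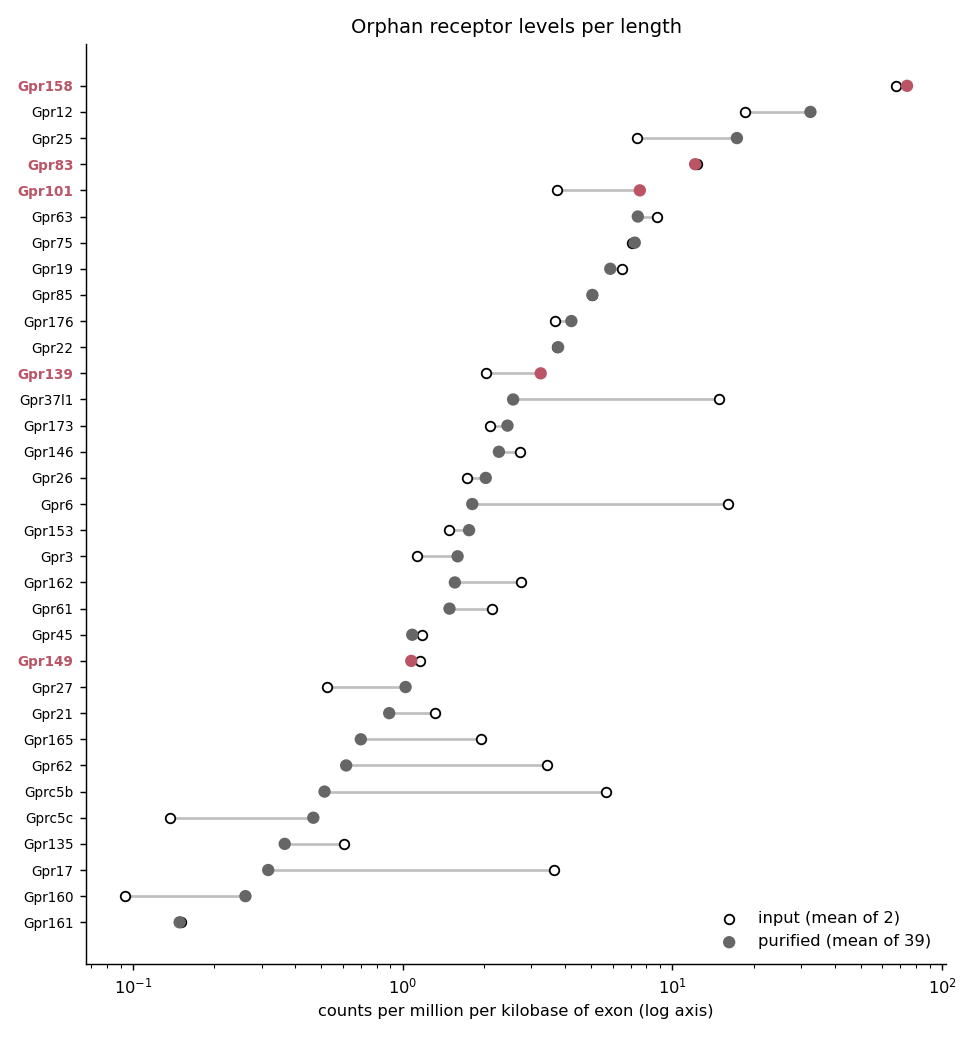
Mean level of each orphan receptor gene with an exon length and at least 1 CPM in the purified libraries, in CPM per kilobase of exon on a log axis (filled, mean of 39 purified libraries; open, mean of 2 inputs; the 5 receptors in red). Gpr158 lies at 74.1 CPM per kilobase, while Gpr6, a receptor of indirect pathway neurons, lies at 1.81 in purified RNA and 16.1 in the inputs.

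Gpr101 was the receptor whose level stood furthest above the inputs. It had 19.3 and 21.1 CPM in the inputs. In the saline purified libraries it had 27.5, 23.3, 65.1, 12.2 and 69.7 CPM at 24 h and 46.2, 76.9, 37.8, 54.3 and 53.5 at 1 month. Of these 10 libraries, 9 lay above both inputs and saline replicate 5 at 24 h, with 12.2, lay below both. The log2 fold change of saline purified over input was 1.37 ± 0.55 (SE), with a 95% interval of 0.19 to 2.55, and did not pass edgeR's quasi-likelihood test over all genes (adjusted p = 0.191).

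The 1-month saline libraries entered the contrast that selected Gpr101, so that high values in them are part of the selection. The test free of them is that of the 24 h saline libraries alone, which gave 1.18 ± 0.71 over the inputs and did not pass (adjusted p = 0.61, edgeR). As a description, the 1-month saline libraries alone gave 1.59 ± 0.27. Without saline replicate 5 at 24 h the value over both times was 1.48 ± 0.41 and passed the threshold in edgeR, but 5 of its 9 purified libraries are those of 1 month. In bulk RNA, a difference in the share of cells that express a gene and a difference in RNA per cell cannot be told apart. The labels restart their numbering in every group, inputs included, so RNA type and library set cannot be told apart either.

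None of the 5 receptors was called in purified against input RNA by edgeR, where 4.65% of 15305 genes were called (1.84% higher and 2.81% lower). Gpr101 alone had an unadjusted p under 0.05, which is no independent test because the 1-month saline libraries entered its choice. DESeq2 called none of the 5 and 938 genes in all. The median log2 fold change of the 5 was 0.23, against -0.01 over all genes. Gpr139 was at 0.69 ± 0.88 (9.78 and 9.999 CPM in the inputs), Gpr158 at 0.23 ± 0.21, Gpr83 at 0.08 ± 0.45 and Gpr149 at -0.12 ± 0.89. The value of Gpr83 depended on the setting and ran from -0.51, with the 24 h saline libraries alone, to 0.69. The ranges of purified and input libraries overlapped for all 5, while they did not for 17.7% of genes.

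Of 46 other orphan receptor genes, 37 could be tested in purified against input RNA, with 0 called higher, 4 lower and a median log2 fold change of -0.11. Gpr6 and Gpr52, receptors of indirect pathway neurons, fell by 3.39 ± 0.80 (adjusted p = 0.0266) and 2.22 ± 0.58 (adjusted p = 0.0409) on the log2 scale. Gpr37, which is abundant in oligodendrocytes, fell by 7.88 ± 1.12 (adjusted p = 0.00162), and Gpr17, a receptor of oligodendrocyte precursors, by 4.02 ± 0.94 (adjusted p = 0.0254). Gpr12, a constitutively active receptor, was at 0.95 ± 0.28 (adjusted p = 0.0705, edgeR; called by DESeq2).

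**Figure D2:**
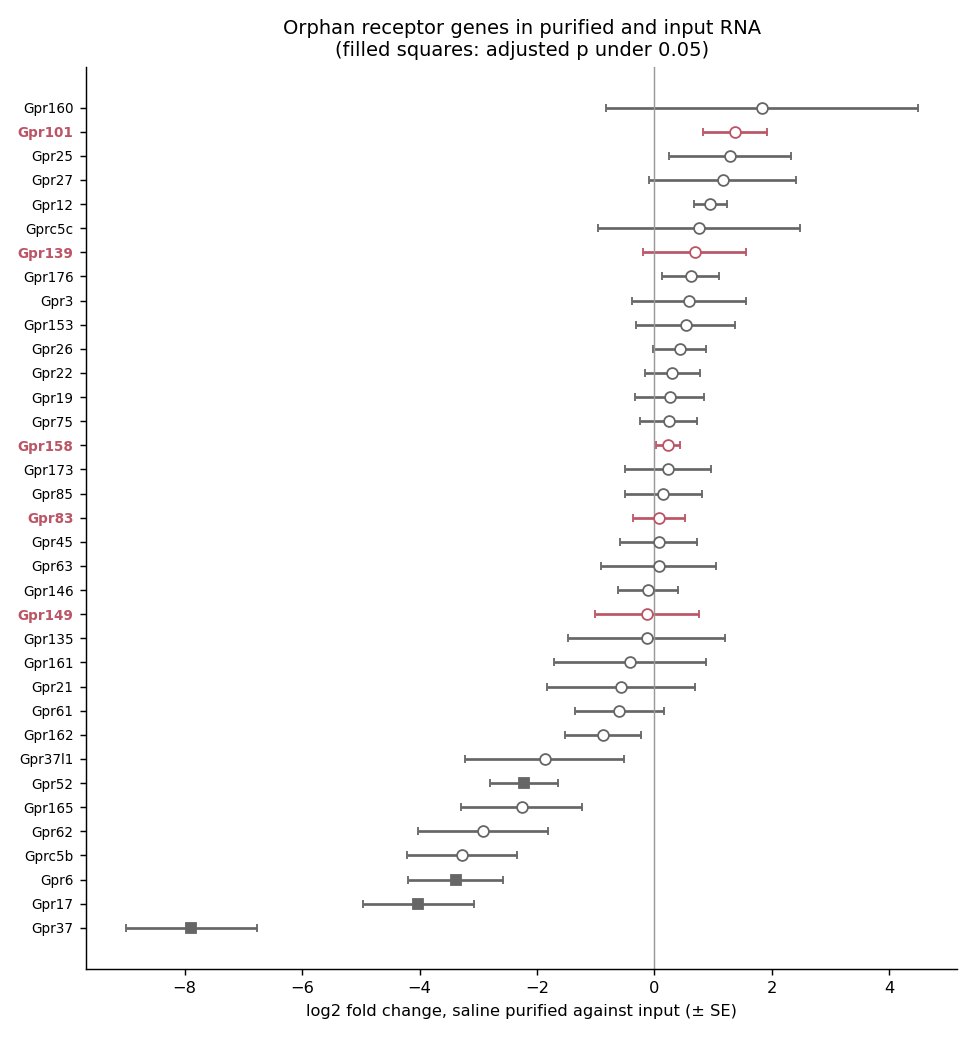
Log2 fold change of saline purified over input RNA with its SE for orphan receptor genes, from edgeR (10 purified and 2 input libraries; filled squares, adjusted p under 0.05; the 5 receptors in red). Gpr101 lies at 1.37 and did not pass, and the 4 genes that passed all lie to the left, from -2.22 to -7.88.

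Gpr101 had lower values in cocaine than in saline libraries at 1 month, which is the contrast it was chosen for. Its mean was 53.7 ± 14.6 CPM (SD, n = 5) in saline, 37.6 ± 7.29 (n = 11) in nonescalating and 33.7 ± 7.93 (n = 4) in escalating libraries. The nonescalating libraries ran from 24.6 through a median of 40.3 to 46.0 CPM, and the escalating libraries had 29.1, 25.3, 42.9 and 37.3. All 15 cocaine libraries lay below the saline median of 53.5 CPM, but the groups overlapped: 5 of 11 nonescalating and 3 of 4 escalating libraries lay below the lowest saline library (37.8).

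The fold change of Gpr101 in all cocaine over saline at 1 month was -0.62 ± 0.17 on the log2 scale. Its rank by p-value, 4 of 14488 genes, repeats what Gpr101 was chosen for and is no result. The fold change was -0.71 ± 0.22 in the escalating group and -0.53 ± 0.17 in the nonescalating group, and both share the 5 saline libraries. At 1 month 0% of 14488 genes were called by edgeR or DESeq2, and 317 genes had an unadjusted p under 0.05 in edgeR. Within the nonescalating libraries the first run of replicate numbers averaged 36.8 ± 8.68 CPM (n = 6) and the second 38.5 ± 6.05 (n = 5). Without the highest saline library, replicate 2, the nonescalating value was -0.35.

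The difference between escalating and nonescalating libraries in Gpr101 at 1 month was within its error. The log2 fold change was -0.18 ± 0.19, and 0 of the 5 receptors were called by edgeR or DESeq2 or had an unadjusted p under 0.05 (0% of genes called; 177 with an unadjusted p under 0.05 in edgeR). The summed level of 9 D1 neuron markers overlapped between the groups at 1 month, with 2067 to 2525 CPM in saline, 2122 to 2867 in nonescalating and 2271 to 2631 in escalating libraries. That of 6 striosome markers was 218.5 to 511.1, 183.2 to 335.4 and 188.1 to 299.2 CPM. All 8 endothelial markers (median 0.55) and all 8 tested oligodendrocyte markers (median 0.26) had positive fold changes in all cocaine over saline, with none called. The endothelial sums were 40.8 to 888, 26.1 to 1536 and 80.2 to 571 CPM, and the oligodendrocyte sums 140.4 to 199.6, 92.3 to 421 and 129.8 to 215 CPM. Their part in the difference of Gpr101 was not tested.

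At 24 h the Gpr101 ranges of cocaine and saline libraries overlapped widely. The nonescalating libraries ran from 16 through 40.9 to 74.4 CPM and the escalating libraries had 57.1, 39.7, 49.4, 33.8 and 35.5, all within the saline range of 12.2 to 69.7 except the highest nonescalating library. All cocaine over saline was 0.01 ± 0.33 with a 95% interval of -0.67 to 0.69, escalating over saline 0.05 ± 0.39 and nonescalating over saline -0.03 ± 0.35. Without saline replicate 5 the first of these was -0.20 ± 0.30. The saline libraries of 24 h spread widely, with an SD of 26.1 CPM around a mean of 39.6, and the interval at 24 h holds the 1-month value of -0.62. The difference between the cocaine effects of the 2 times was -0.63 ± 0.38 for Gpr101, given as a description because it holds the 1-month contrast.

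Set in order, Gpr101 means fell from 1-month saline (53.7 CPM) through escalating 24 h (43.1), nonescalating 24 h (40.8), saline 24 h (39.6), nonescalating 1 month (37.6) and escalating 1 month (33.7) to the inputs (20.2). Of the neighbours in this order, only escalating 1 month and the inputs were further apart than the larger of their SDs. The 1-month saline libraries thus held the highest mean, and over the 24 h saline libraries their log2 fold change was 0.37 ± 0.32, given without a test because they entered the selection. Without saline replicate 5 at 24 h, the 24 h saline mean was 46.4 ± 24.4 CPM, above both 24 h cocaine means.

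**Figure D3:**
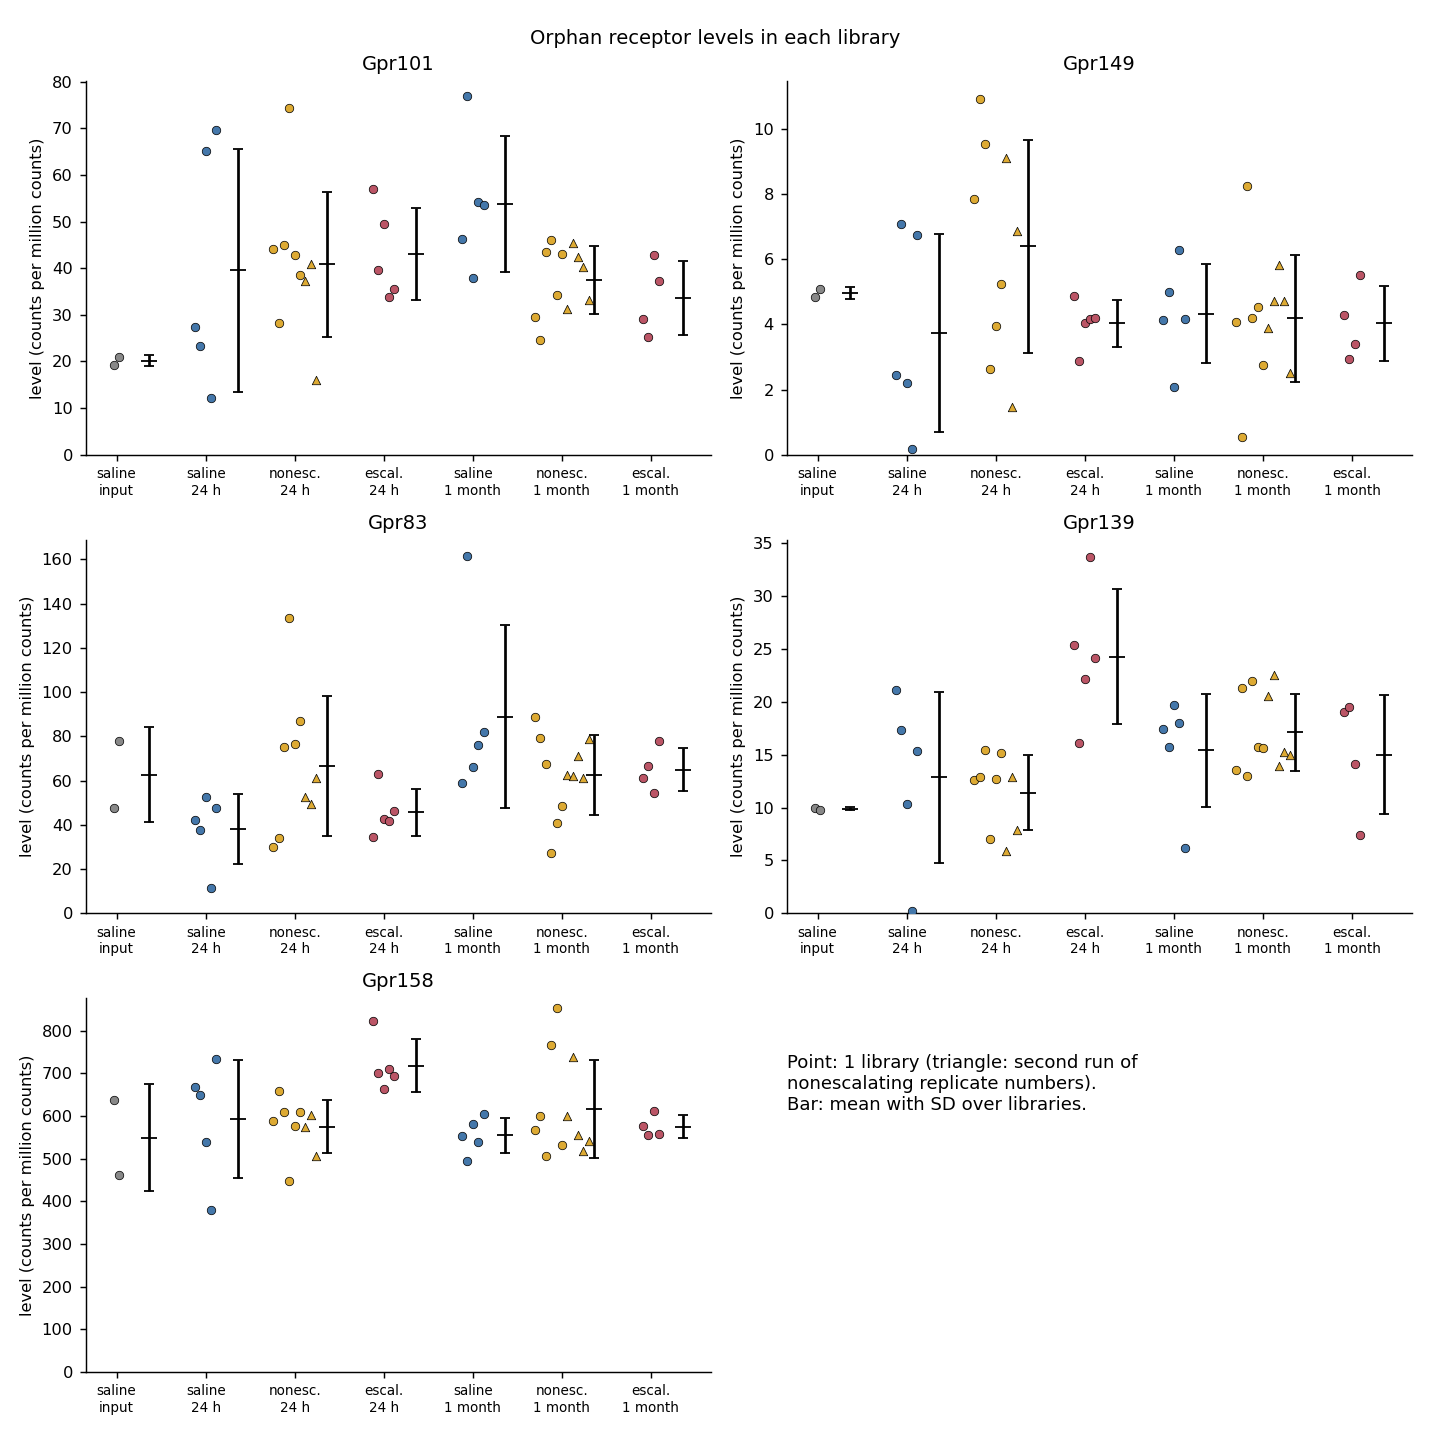
Level of each receptor gene in every library in CPM, by group (points, 1 library each; triangles, second run of nonescalating replicate numbers; bars, mean ± SD). For Gpr101 the 15 cocaine libraries at 1 month lie between 24.6 and 46.0 CPM, below the saline median of 53.5, and for Gpr139 the 5 escalating libraries at 24 h lie above all 9 nonescalating ones.

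Gpr83 differed most between the saline groups of the 2 times. It had 42.1, 37.5, 52.5, 11.5 and 47.4 CPM in saline at 24 h and 58.9, 161.5, 66.25, 75.9 and 82.1 at 1 month. Every 1-month saline library lay above every 24 h saline library, as was so in either direction for 2.97% of 15190 genes. The log2 fold change of 1 month over 24 h was 1.15 ± 0.33 with a 95% interval of 0.48 to 1.83.

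That difference in Gpr83 did not pass edgeR (adjusted p = 0.0762) and passed DESeq2 (log2 fold change 1.13, adjusted p = 0.0231). Over all alternatives its adjusted p ran from 0.0231 to 0.243. It was 0.92 ± 0.32 without saline replicate 5 at 24 h (adjusted p = 0.162, edgeR) and 0.82 without the highest 1-month saline library, replicate 2 (adjusted p = 0.243, edgeR). None of the 5 receptors was called by edgeR, with 0.843% of genes called, and 1 was called by DESeq2 and had an unadjusted p under 0.05, Gpr83. The numbering in the labels restarts in every group, so time and any set of libraries handled together cannot be told apart. The same holds for the comparisons of cocaine and saline groups. The other tested receptors were at 0.15 ± 0.55 for Gpr149, 0.22 ± 0.44 for Gpr139 and -0.16 ± 0.14 for Gpr158.

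After cocaine at 24 h, the nonescalating libraries ran in Gpr83 from 30.1 through 61.0 to 133 CPM, and 6 of 9 lay above all 5 saline libraries. The log2 fold change was 0.73 ± 0.33 and did not pass (unadjusted p = 0.0372, adjusted p = 0.378, edgeR), with 0% of genes called. The escalating libraries had 34.6, 62.7, 42.7, 41.6 and 46.4 CPM, at 0.19 ± 0.36 over saline. Without saline replicate 5 the nonescalating value was 0.51 ± 0.29 and the escalating value -0.03 ± 0.32.

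At 1 month Gpr83 had 27.4 to 88.7 CPM in nonescalating libraries (median 62.4) and 61.4, 66.4, 54.3 and 77.7 in escalating libraries, against 58.9 to 161.5 in saline. The log2 fold changes over saline were -0.52 ± 0.22 and -0.49 ± 0.28, given as a description, and 3 of 11 nonescalating and 1 of 4 escalating libraries lay below all saline libraries. The ranges of escalating and saline libraries at 1 month overlapped for all 5 receptors, while they did not for 1.26% of genes. Escalating over nonescalating was 0.03 ± 0.24. The difference between the cocaine effects of the 2 times was -0.96 ± 0.39 on the log2 scale, given as a description because it holds the 1-month contrast (0.0132% of genes called, none of the 5 receptors).

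In order of their means, Gpr83 had 88.9 ± 41.5 CPM in saline at 1 month, then 66.6 ± 31.6 (nonescalating 24 h), 65.0 ± 9.86 (escalating 1 month), 62.7 ± 21.3 (inputs), 62.5 ± 17.99 (nonescalating 1 month), 45.6 ± 10.5 (escalating 24 h) and 38.2 ± 15.95 (saline 24 h). No neighbours in this order differed by more than the larger of their SDs. Pcsk1n, which encodes proSAAS, was at 0.61 ± 0.30 in purified against input RNA (adjusted p = 0.306, edgeR), and Pomc, another peptide precursor gene, at 0.18 ± 1.36.

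Gpr139 was highest in the escalating libraries at 24 h. These had 25.4, 16.1, 22.1, 33.7 and 24.1 CPM, against 5.87 through a median of 12.7 to 15.4 CPM in the 9 nonescalating libraries. Saline libraries had 21.1, 17.4, 10.3, 0.185 and 15.4 CPM, where the value of 0.185 is 1 count in saline replicate 5. Its exact 95% binomial interval of 0.00469 to 1.03 CPM covers counting error only. Each escalating library lay above each nonescalating library, and 4 of 5 lay above every saline library. Escalating and saline ranges overlapped for all 5 receptors, while they did not for 1.57% of genes.

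Gpr158 separated the same groups. The escalating libraries had 823, 702, 663, 712 and 693 CPM, and the nonescalating libraries ran from 447 through 589 to 659. Saline libraries had 668, 649.6, 539.7, 379 and 733 CPM, the lowest again in replicate 5, and overlapped both cocaine groups. Gpr139 and Gpr158 were 2 of the 21 genes whose escalating and nonescalating ranges did not overlap at 24 h, which is 0.156% of 13437 genes. Their levels rose together over the 39 purified libraries (Spearman's rho 0.545). That value includes the separations themselves, so it cannot show whether one depends on the other. The separations are not read as independent of each other.

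Neither separation passed the test over all genes. Escalating over nonescalating, Gpr139 was at 1.11 ± 0.47 (95% interval 0.15 to 2.07, unadjusted p = 0.0256, adjusted p = 0.999) and Gpr158 at 0.34 ± 0.13 (0.08 to 0.60, unadjusted p = 0.0126, adjusted p = 0.999) in edgeR's quasi-likelihood test. None of the 5 receptors and 0% of genes were called by edgeR in this comparison, none by DESeq2, and 2 receptors had an unadjusted p under 0.05. Without saline replicate 5, which enters this contrast only through the scaling and the estimate of the spread, the values were 1.11 ± 0.27 (adjusted p = 0.628) and 0.34 ± 0.11 (adjusted p = 0.652).

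Because the ranges did not overlap, the difference had to have the same sign against either run of nonescalating replicate numbers. The values by run are a description and no further support. Gpr139 averaged 12.6 ± 3.03 CPM (n = 6) in the first run and 8.87 ± 3.60 (n = 3) in the second, and escalating over each run was 0.97 ± 0.53 and 1.45 ± 0.77 on the log2 scale. Gpr158 averaged 582 ± 71.6 and 562 ± 49.1 CPM, and the values were 0.32 ± 0.14 and 0.37 ± 0.18. Against saline, escalating libraries were at 0.88 ± 0.54 for Gpr139 (adjusted p = 0.59, edgeR) and 0.21 ± 0.14 for Gpr158 (adjusted p = 0.625, edgeR). Without saline replicate 5 these were 0.57 ± 0.33 and 0.11 ± 0.13.

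**Figure D4:**
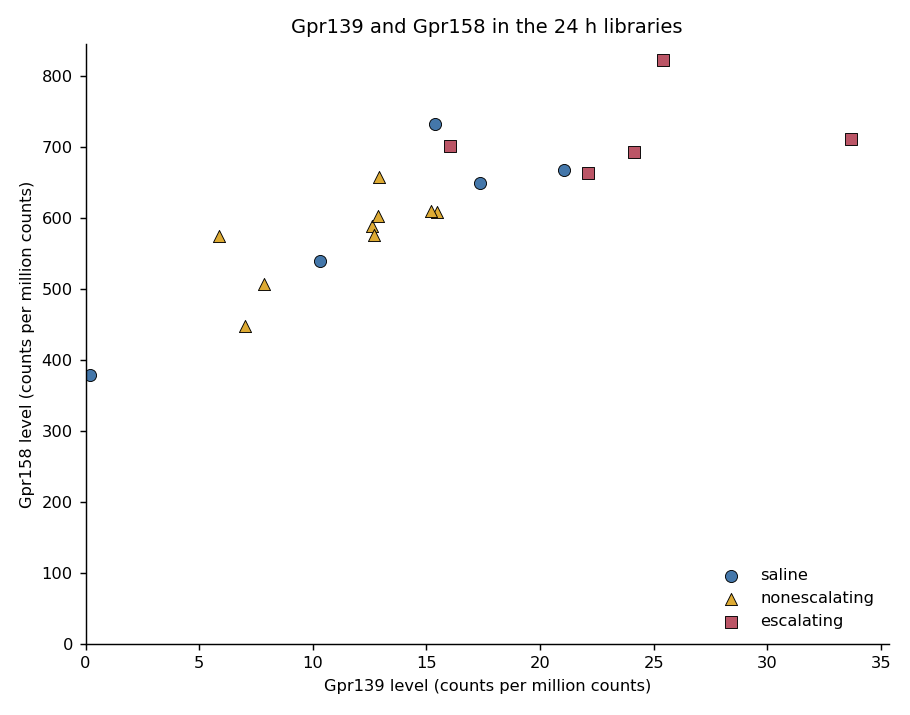
Gpr139 against Gpr158 level in CPM in the 19 libraries of 24 h (1 point each). The 5 escalating libraries lie right of and above all 9 nonescalating libraries on both axes, and the saline library at the lower left, with 0.185 CPM of Gpr139 and 379 of Gpr158, is replicate 5.

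The marker lists of other cell types and compartments also differed in part between these groups, though no marker was called in escalating over nonescalating at 24 h. The 6 striosome markers, all in the tables, summed to 139.9 to 256.3 CPM in escalating, 224.1 to 433.0 in nonescalating and 160.4 to 2973 in saline libraries, the last value being that of replicate 5. The 6 matrix markers overlapped, with 1275 to 1675, 1120.1 to 1626 and 994.0 to 1457 CPM and 3 of 6 positive in escalating over nonescalating. Over the 39 purified libraries, Spearman's rho of Gpr158 was 0.648 with the matrix sum and -0.562 with the striosome sum. For Gpr139 these were 0.196 and -0.611, and all include the differences between groups. The 9 markers of cortical excitatory neurons summed to 29.1 to 185, 52.6 to 499 and 73.8 to 329 CPM. All 8 endothelial markers had negative fold changes in escalating over nonescalating (median -0.87), with sums of 24.2 to 339.6, 26.4 to 846 and 17.9 to 1655 CPM. Of 5 tested oligodendrocyte precursor markers 1 was positive (median -1.19), with sums of 7.47 to 18.6, 4.60 to 50.6 and 5.35 to 71.4 CPM. Their part in the result was not tested.

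At 1 month the ranges of the cocaine groups overlapped for all 5 receptors, while they did not for 0.0552% of genes. Gpr139 had 17.4, 15.7, 19.7, 18.03 and 6.15 CPM in saline, 12.99 to 22.5 (median 15.7) in nonescalating and 19, 19.5, 14.1 and 7.40 in escalating libraries. Gpr158 had 554, 494, 581, 539.6 and 604 CPM in saline, 506.6 to 854 (median 567.6) in nonescalating and 576, 555, 612 and 558 in escalating libraries. Escalating over nonescalating was -0.24 ± 0.28 for Gpr139 and -0.13 ± 0.13 for Gpr158, and over saline the log2 fold changes of all cocaine were 0.01 ± 0.25 and 0.08 ± 0.12.

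Over all groups, the Gpr139 mean of escalating libraries at 24 h (24.3 ± 6.36 CPM) exceeded the next, nonescalating at 1 month (17.1 ± 3.65), by more than the larger SD. The remaining means fell from 15.4 ± 5.36 (saline 1 month) through 15 ± 5.62 (escalating 1 month), 12.9 ± 8.08 (saline 24 h) and 11.4 ± 3.54 (nonescalating 24 h) to 9.89 ± 0.153 (inputs), with each step within the larger SD. Gpr158 means ran from 719 ± 61.3 (escalating 24 h) through 617 ± 116 (nonescalating 1 month), 594 ± 139 (saline 24 h), 576 ± 26.4 (escalating 1 month), 575 ± 62.5 (nonescalating 24 h) and 555 ± 41.9 (saline 1 month) to 549 ± 125 (inputs). No step in the order of Gpr158 exceeded the larger SD.

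Gpr149 had the fewest counts of the 5 receptors, with 1 to 133 in a purified library. It had 4.83 and 5.08 CPM in the inputs and 2.43, 7.06, 2.198, 0.185 and 6.75 in saline at 24 h. The nonescalating libraries at 24 h had the highest mean, 6.39 ± 3.27 CPM (n = 9), and 4 of 9 lay above all saline libraries. The other groups had means between 3.73 and 4.33 CPM, and no neighbours in the order of the groups differed by more than the larger SD. At 24 h the log2 fold change over saline was 0.68 ± 0.58 in nonescalating and 0.05 ± 0.64 in escalating libraries, and at 1 month all cocaine over saline was -0.12 ± 0.39. Without saline replicate 5, which holds 1 count of Gpr149, these 24 h values were 0.38 ± 0.49 and -0.24 ± 0.54. The spread between libraries was wide, with a coefficient of variation of 81.4% in saline and 51.3% in nonescalating libraries at 24 h.

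Over the remaining 24 h comparisons none of the 5 receptors was called by edgeR or DESeq2. All cocaine over saline called 0.0447% of 13437 genes and escalating over saline 0%, and neither gave a receptor an unadjusted p under 0.05, while nonescalating over saline gave 1, Gpr83. DESeq2 called 171, 47 and 117 genes in these comparisons. The ranges of all cocaine and saline libraries overlapped for all 5 receptors, while they did not for 0.104% of genes.

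**Figure D5:**
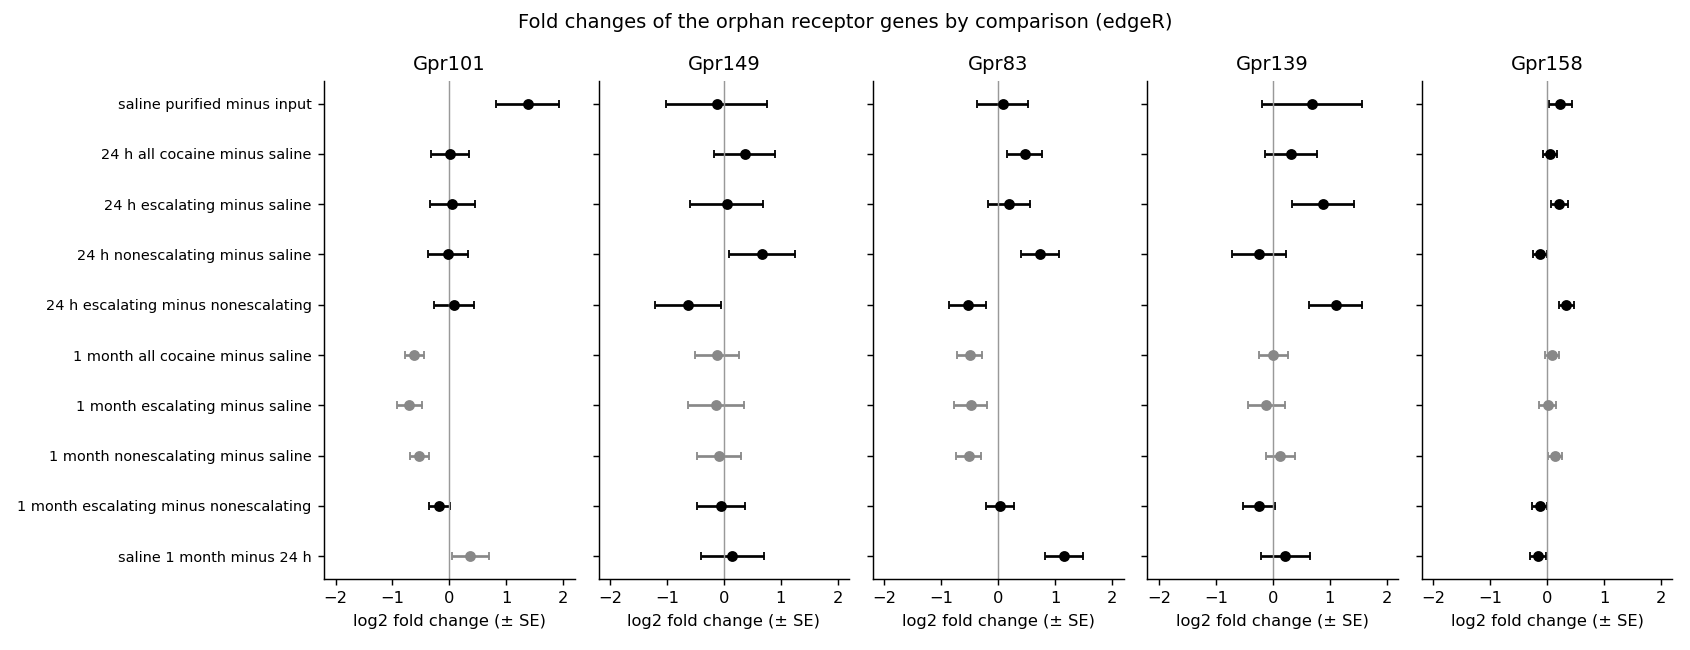
Log2 fold change with its SE of each receptor gene in 10 comparisons, from edgeR. Grey points are described without a test, since the choice of Gpr101 used those contrasts or, for saline over time in Gpr101, their saline libraries. The black Gpr101 point of saline purified over input rests in part on the same 1-month saline libraries and is no independent test. Gpr139 reaches 1.11 and Gpr158 0.34 for escalating over nonescalating at 24 h, and Gpr83 1.15 for saline at 1 month over 24 h.

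Genes that act with these receptors were also read. Of 12 genes of the stimulatory G protein and adenylyl cyclase list, 2 were called higher in purified than in input RNA, Gnal (1.00 ± 0.22, adjusted p = 0.0184, edgeR), the striatal form of the alpha subunit, and Gng7 (0.94 ± 0.19, adjusted p = 0.0138), its gamma partner. Gnas, the widely expressed alpha subunit gene, fell by 1.67 ± 0.27 (adjusted p = 0.00405). The list's median was 0.28, against -0.01 over all genes. Of 7 tested alpha subunit genes of the inhibitory and Gq families, Gnaz (1.41 ± 0.35, adjusted p = 0.0336) and Gnai1 (0.86 ± 0.22, adjusted p = 0.0375) were higher and none was lower, with Gna11 at 1.08 ± 0.51 (adjusted p = 0.283).

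Among the partners of Gpr158, 7 of 8 were tested. Rgs7, the regulator that Gpr158 brings to the membrane, was higher in purified RNA (0.89 ± 0.21, adjusted p = 0.0245, edgeR), and Rgs9, a striatal member of the same family, was lower (-1.51 ± 0.17, adjusted p = 0.000268). Rgs11, another regulator of the family, was at -3.24 ± 0.92 (adjusted p = 0.059, edgeR) and was called by DESeq2. Gnb5, the beta subunit of both complexes, was at 0.05 ± 0.26, and Gpc4, a glypican that binds Gpr158, at 0.10 ± 1.33. Of 7 receptor kinase and arrestin genes, which end receptor signalling, none was called by edgeR or DESeq2 and 2 had an unadjusted p under 0.05, with Adrbk1 at 0.81 ± 0.33, Adrbk2 at -2.37 ± 0.98 and Grk5 at -0.40 ± 0.35. In all cocaine over saline, at either time, no gene of these lists and none of the other orphan receptors was called by edgeR or DESeq2. Of the other orphan receptors, 31 were tested at 24 h with a median log2 fold change of 0.01 for all cocaine over saline, and 34 at 1 month with a median of -0.12. An unadjusted p under 0.05 was reached by 4 of them at 24 h and 0 at 1 month.

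Other genes were ranked by how closely their level followed each receptor over the 39 purified libraries, by Spearman's rho of log2 CPM over 9427 genes (9428 for Gpr149). The points share group, depth and library set, and rho is a description of likeness. Gpr158 was most like Enpp5 (0.88), Gria3 (0.86), an AMPA receptor subunit, and Tpp2 (0.85). Gpr83 was most like Thra (0.89), the thyroid hormone receptor alpha, Ubb (0.87), a ubiquitin gene, and Baiap2 (0.85). Lower values held for Gpr101, led by Lrrn3 (0.66), Dlk1 (0.62) and Pmepa1 (0.61), for Gpr139, led by Snrpd1 (0.70), B3gnt2 (0.66) and Ndufs4 (0.66), and for Gpr149, led by Sec22c (0.61), Tox (0.61) and Plcxd3 (0.58).

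When each group's mean was subtracted first, Lrrn3 kept rank 1 for Gpr101 (0.70) and Ubb rose to rank 1 for Gpr83 (0.87), while Thra went to rank 46 (0.72). For Gpr158, Enpp5 held rank 4 (0.83) and Tpp2 rank 3 (0.86). For Gpr139 the leading genes went to ranks 86, 365 and 300 (0.58, 0.49 and 0.51), so that likeness rested in part on differences between the groups. The median rho over all genes lay between 0.01 and 0.03 for the 5 receptors.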

How the data were processed

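Per the labels' protocols, dorsal striatum was homogenized, tagged polysomes were pulled down with antibodies to EGFP, and RNA was purified from the pull-down, while inputs are labelled total RNA. The deposited values are raw counts per gene, 1 table per library. Per the submitters' processing notes, STAR 2.0.0e, HTSeq and mm10 were used. Annotation release and strand setting were not given in the sources used here. 6 rows that name no gene were left out of library sizes and tests.

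Levels are CPM over named genes, and per kilobase with the summed exon length in GENCODE (GRCm38). Tests used edgeR 4.0.16 (R 4.3.3; TMM, filterByExpr, quasi-likelihood, Benjamini-Hochberg over all genes tested, threshold 0.05), with 1 fit for each time, 1 for both times and 1 for saline purified and input libraries. DESeq2 1.42.0, other filters and scalings, runs, a replicate block and left-out libraries were alternatives. Intervals are 95%. No 2 libraries of a group agreed within sampling noise (lowest chi-square per degree of freedom 8.89 over 128 pairs).

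The 5 genes and all lists were chosen with earlier results of these data known. Besides the 5, the text names the 3 genes most like each (mean of at least 5 CPM over purified libraries), list members called in a comparison or lowest in p in purified against input RNA, and fixed markers; Gpr12, Gnb5 and Gpc4 were named after their values were seen. On simulated counts the test recovered 39% of 4-fold and 3% of 2-fold changes in purified against input RNA (14925 genes), 84% and 34% in all cocaine against saline at 24 h (13282 genes) and 95% and 67% at 1 month (14363 genes). 1 gene of the orphan receptor list is not reported here and was left out of its counts, medians and ranks.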

Additional observations from a re-analysis of the deposited data

Results flagged for a closer look

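A library far from the rest of its group was looked for in each receptor and each group of 4 to 10 libraries, with Dixon's ratio of gap to range. Of 25 such groups 2 held one, and chance flags about 1 in 20. Gpr101 had 74.39 CPM in nonescalating replicate 4 of the first run at 24 h, the highest of 9 libraries, with a ratio of 0.503 against a critical value of 0.493. Gpr83 had 161.5 CPM in saline replicate 2 at 1 month, the highest of 5 libraries, with a ratio of 0.774 against 0.71.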

How the results depend on the processing

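The count of receptors called was 0 in every comparison and alternative except 3, each giving 1. DESeq2 called 1 in saline at 1 month over 24 h (Gpr83). In purified against input RNA, 1 was called with the 1-month saline libraries alone (Gpr101) and 1 without saline 24 h replicate 5 (Gpr101), so leaving out 1 library gave 0 to 1. Both rest on the 1-month saline libraries that entered the choice of Gpr101 and are no independent test, and the 24 h saline libraries alone gave 0. The cause was not tested. The counts of all genes called ran more widely: from 12 to 2951 for purified against input RNA, from 0 to 508 for all cocaine at 24 h, from 7 to 633 for saline 1 month over 24 h, from 0 to 47 for escalating and from 0 to 276 for nonescalating over saline at 24 h, from 0 to 45 for the difference of cocaine effects and from 0 to 2 for escalating over nonescalating at 24 h. They were 0 at 1 month throughout.

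Fold changes near 0 changed sign under some settings, with the cause not tested. Gpr83 in purified over input RNA was -0.00805 with DESeq2's size factors, -0.0248 with a minimum mean of 5 CPM, -0.00834 with DESeq2 and -0.51 with the 24 h saline libraries alone. Gpr101 in all cocaine over saline at 24 h was -0.000924 with DESeq2's size factors, -0.000349 with DESeq2 and -0.18 with the second nonescalating run alone. With the first run alone it was 0.13 for nonescalating over saline and -0.076 for escalating over nonescalating at 24 h. Gpr83 in escalating over nonescalating at 1 month was -0.063 with the second run alone.

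With the replicate block, Gpr149 in purified over input RNA was 0.0063, Gpr101 in nonescalating over saline at 24 h 0.067 and Gpr139 in all cocaine over saline at 1 month -0.011, against the opposite sign without it. The block called 0 genes for all cocaine at 24 h, 156 in purified against input RNA and 53 in saline 1 month over 24 h, and changed no call among the 5 receptors. Whether the shared numbers pair the libraries cannot be decided here, since differently numbered libraries were not compared. Same-numbered deviations correlated between -0.338 and 0.371, and no pair of groups had every correlation over 0.1. Saline and nonescalating libraries at 24 h had 3 of 5 over 0.1, from -0.0323 to 0.285.

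Leaving out 1 library at a time moved the sign of these values. In purified over input RNA, Gpr149 ran from -0.30 to 0.028, Gpr83 from -0.21 to 0.43 and Gpr158 from -0.0092 to 0.52. At 24 h, all cocaine over saline ran from -0.20 to 0.31 for Gpr101 and from -0.062 to 0.13 for Gpr158. Escalating over saline ran from -0.17 to 0.35 for Gpr101, from -0.24 to 0.41 for Gpr149 and from -0.027 to 0.34 for Gpr83. Gpr101 ran from -0.24 to 0.27 in nonescalating over saline and from -0.054 to 0.25 in escalating over nonescalating. At 1 month, all cocaine over saline ran from -0.29 to 0.081 for Gpr149 and from -0.19 to 0.13 for Gpr139. Escalating over saline ran from -0.36 to 0.055 for Gpr149, from -0.31 to 0.10 for Gpr139 and from -0.0195 to 0.0498 for Gpr158. Nonescalating over saline ran from -0.26 to 0.11 for Gpr149 and from -0.061 to 0.25 for Gpr139. Escalating over nonescalating ran from -0.27 to 0.068 for Gpr149 and from -0.092 to 0.095 for Gpr83. Saline 1 month over 24 h ran from -0.15 to 0.51 for Gpr149 and from -0.093 to 0.43 for Gpr139. The difference of cocaine effects ran from -0.51 to 0.016 for Gpr139 and from -0.052 to 0.15 for Gpr158.

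The values named in the text for Gpr101 at 1 month (-0.71 to -0.44 for all cocaine), for Gpr139 (0.95 to 1.23) and Gpr158 (0.28 to 0.38) in escalating over nonescalating at 24 h and for Gpr83 in saline over time (0.82 to 1.30) kept their sign when 1 library was left out. This adds no support. Gpr101 was chosen by its 1-month contrast. For Gpr139, Gpr158 and Gpr83 the CPM ranges of the compared groups did not overlap, so a kept sign was largely given in advance. Leaving out each nonescalating library was added after the data were seen.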
